A study of Mus musculus with 48 samples.

Results

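Interferons are signalling proteins that cells release when they sense foreign or misplaced nucleic acid. Type I interferons act through a complex with STAT2 and IRF9, which binds a response element (ISRE) in the promoters of many genes, and interferon gamma acts through a receptor of its own. The products sense viral RNA, degrade it, block translation, destroy pathogen vacuoles and feed peptides to MHC class I, and many of them also have a baseline level in tissues without infection. Described here are 40 such genes, which were chosen by symbol from a written list and looked up in the tables of 6 tissues, out of 15541 genes in all tables together. One of the 40, Ifngr1, is a receptor chain rather than an effector.

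The libraries came from male C57Bl6 mice with diet-induced obesity after a high fat diet. They had Roux-en-Y gastric bypass (RYGB), in which food skips most of the stomach and the duodenum, or sham surgery, and were killed 9 days later after an overnight fast. Both groups received a liquid elemental diet after surgery, and the protocol also names a return to the high fat diet without saying for which mice. Weight matching of the sham group is not mentioned. Each group was represented by 4 libraries in liver, subcutaneous white adipose tissue (WAT) and gastrocnemius muscle, by 5 in the scraped villi of ileum, and by 3 (RYGB) and 4 (sham) in those of duodenum and jejunum, for 48 libraries in all.

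All 40 genes were listed in liver and WAT. Muscle listed 34 (not Mx1, Mx2, Oas1a, Oas3, Oasl1 or Zbp1), duodenum and jejunum 38 (not Ifi27l2a or Iigp1) and ileum 37 (not Gbp2, Ifi27l2a or Iigp1), and 31 were listed in every table. Levels are in CPM, the counts of a gene scaled to a common library total. Gbp2 in jejunum stayed under the average of 1 CPM needed for the test and ranged from 0.5 to 1.2 CPM over its libraries.

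The tissue labels were checked against defining markers. The liver, fat, muscle and villus marker lists were high in their own tissues. The libraries labelled ileum were less clear, since the distal bile acid genes were low there. Fabp6 read 0.1 to 50.5 CPM after RYGB and 0.0 to 22.9 CPM after sham, and Slc10a2 read 1.6 to 53.7 and 0.2 to 2.5 CPM and rose (adjusted p = 0.0474). Gata4, a factor of the upper intestine, ranged from 105.0 to 183.2 CPM in them and from 122.0 to 239.1 CPM in jejunum. Other markers went with the label. Fabp6, Slc10a2 and Osr2 together summed to 43.6 to 123.3 CPM after RYGB and 48.1 to 94.3 CPM after sham. In jejunum, which did not list Fabp6, the sums were 16.7 to 26.6 and 17.3 to 36.8 CPM. Pdx1, on the marker list of the duodenum with Gata4, was listed in duodenum and jejunum but not in ileum. In bulk tissue, fewer cells of a type and less RNA per cell cannot be told apart.

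Promoters from RefSeq (GRCm38.p6, 250 bases before to 50 after the start of transcription) were available for 28 of the 40 genes, as 32 promoters. Not among them were Dhx58, Ifi27l2a, Iigp1, Mx1, Mx2, Nlrc5, Oas2, Parp14, Parp9, Rtp4, Usp18 and Zbp1. The ISRE was searched as GAAA, 2 bases of any kind and GAAA, and for the other strand as TTTC, 2 bases of any kind and TTTC, with overlapping matches allowed. It was found in 17 of the 32 promoters, which belong to 16 genes, against 3.44% of all 32851 promoters in the table. The gamma-activated site, searched as TTCNNNGAA (the same letters on both strands), was found in 6 of the 32, against 8.3% of all promoters. A match is a stretch of letters and not a measured binding site. Shown are 100 bases from 5 promoters, on the strand of the gene, with ISRE matches in capitals. They were chosen because each holds a match and its gene is described below (Ifit1, Ifit3 and Isg15 in liver, Rsad2 in WAT, Oas3 in ileum). Of these, Ifit1 in liver and Rsad2 in WAT were called and the others were not, and the windows end before the start of transcription.
Ifit1, chr19:34640759-34640858, + strand: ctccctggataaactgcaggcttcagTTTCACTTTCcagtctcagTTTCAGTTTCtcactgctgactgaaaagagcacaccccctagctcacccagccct
Ifit3, chr19:34583362-34583461, + strand: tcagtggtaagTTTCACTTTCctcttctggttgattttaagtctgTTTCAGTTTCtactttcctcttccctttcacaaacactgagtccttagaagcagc
Isg15, chr4:156200830-156200929, - strand: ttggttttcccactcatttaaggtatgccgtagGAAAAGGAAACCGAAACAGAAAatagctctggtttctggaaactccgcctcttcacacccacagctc
Rsad2, chr12:26456518-26456617, - strand: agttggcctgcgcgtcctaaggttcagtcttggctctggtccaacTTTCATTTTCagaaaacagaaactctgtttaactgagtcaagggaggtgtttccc
Oas3, chr5:120777680-120777779, - strand: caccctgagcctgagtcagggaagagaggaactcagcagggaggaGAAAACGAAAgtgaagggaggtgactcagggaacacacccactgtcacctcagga
Ifit1 and Ifit3 each hold a pair of matches, and Isg15 holds 3 that overlap one another. No match was found in the windows of Irf7, Oasl1, Oasl2, Ifi44, Ifit2, Dtx3l, Tap1 or Ifngr1, which says only that these letters are not within these 300 bases.

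The question was how the genes differed between RYGB and sham mice in each tissue. A gene was called when its adjusted p-value was under 0.05 over all genes tested in the tissue and its fold change was at least 1.5 on log2(CPM + 1), and "rose" and "fell" are used for called genes only. Differences are given as log2 fold changes of RYGB against sham with their standard errors. In liver 5 genes fell and 2 rose, in WAT 4 fell and 3 rose, in jejunum 2 rose, in ileum 3 fell, and in muscle and duodenum none was called. The tables were normalized separately, so no test between tissues was made.

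**Figure D1:**
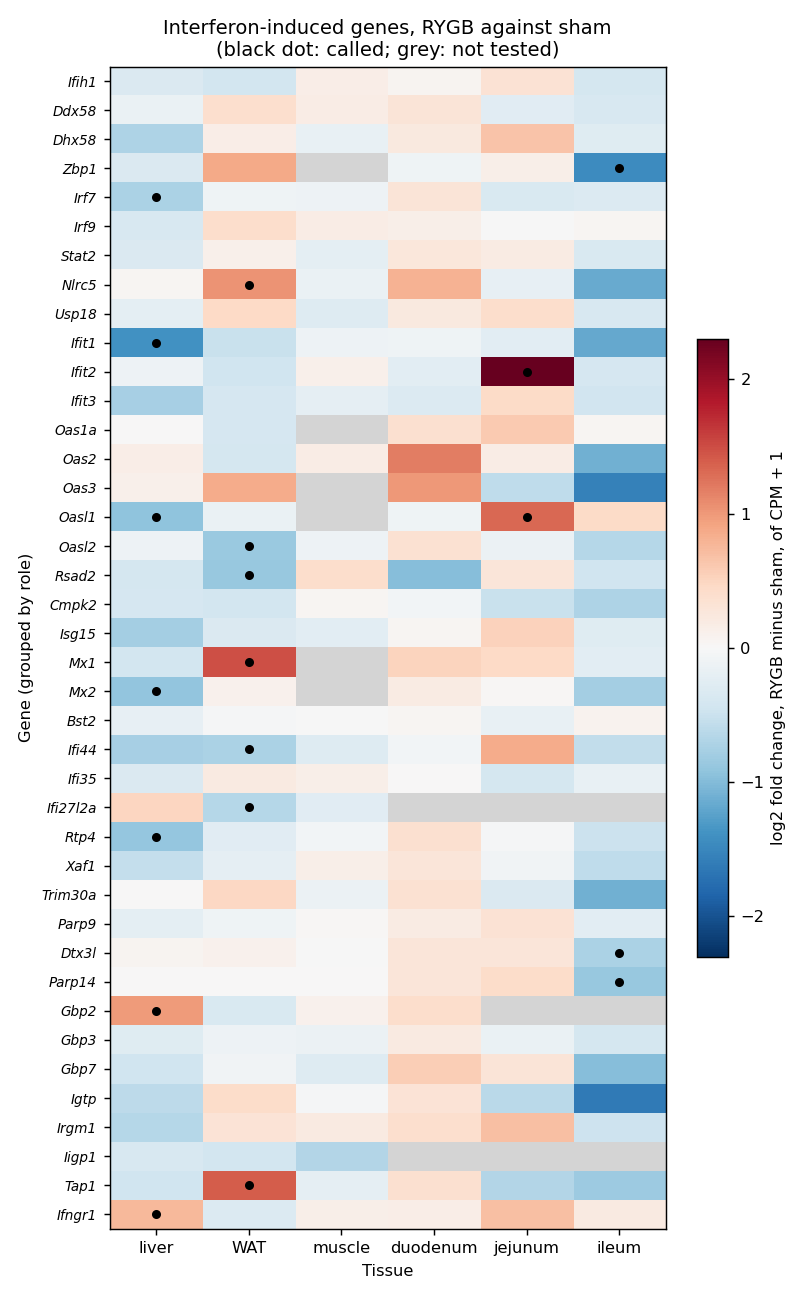
Log2 fold change (RYGB minus sham, of CPM + 1) of the 40 genes (rows, grouped by role) in 6 tissues (columns), where red means higher and blue lower after RYGB, with a black dot where a gene was called, and grey where it was not tested. Blue prevails in liver (30 of 40 genes below 0) and ileum (32 of 37), and red in duodenum (30 of 38 above 0).

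In liver Ifit1, Oasl1, Rtp4, Mx2 and Irf7 fell after RYGB, and Gbp2 and both chains of the interferon gamma receptor rose. Of the 40 genes, 5 fell (1.29% of all 11807 genes tested fell) and 2 rose (5.79% of all genes rose). The log2 fold change was below 0 for 30 of the 40 genes, against 29% of all genes, and its median was -0.33, against 0.13 over all genes. An unadjusted p under 0.05 was reached by 17 genes, 15 of them lower, where 26.9% of all genes reached it. With libraries scaled by their median ratio, which moved the median over all genes to -0.01, the median of the 40 was -0.48, and 9 fell and 2 rose, where 1.98% of all genes fell and 3.7% rose.

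Ifit1, which binds viral RNA through its 5′ end, had the largest fall in liver. It read 15.9, 5.9, 24.6 and 14.5 CPM in RYGB replicates 1 to 4 and 31.4, 58.0, 35.2 and 30.6 CPM in sham replicates 1 to 4. The groups did not overlap, and RYGB replicate 2 was the lowest and sham replicate 2 the highest library. The means were 15.2 ± 7.66 CPM (SD, n = 4) and 38.8 ± 12.96 CPM (SD, n = 4), with a log2 fold change of -1.39 ± 0.34 (SE) and an adjusted p of 0.0345. Its neighbour Ifit3 had a log2 fold change of -0.76 ± 0.24 and Isg15, the ubiquitin-like modifier, of -0.77 ± 0.26, but with adjusted p of 0.0687 and 0.0815 neither passed.

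Oasl1 belongs to the oligoadenylate synthetase family but makes no oligoadenylate, and in mice it restrains the translation of Irf7. Its levels in liver were 22.3, 15.0, 25.1 and 16.4 CPM after RYGB and 37.6, 49.1, 32.5 and 32.4 CPM after sham. Every RYGB library lay below every sham library, and the log2 fold change was -0.92 ± 0.18 (adjusted p = 0.0165). Irf7 itself, the factor that amplifies type I interferon production, read 54.3, 57.4, 74.4 and 55.4 CPM after RYGB and 110.9, 137.7, 77.5 and 84.9 CPM after sham. The highest RYGB library, replicate 3, came close to the lowest sham library, and the log2 fold change was -0.73 ± 0.18 (adjusted p = 0.0332).

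Rtp4, an interferon-induced chaperone that also inhibits viral replication, read 19.2, 15.6, 29.2 and 19.8 CPM after RYGB and 37.1, 51.5, 39.3 and 30.4 CPM after sham. RYGB replicate 3 was again the highest of its group, without reaching the sham libraries, and the difference was -0.90 ± 0.20 on the log2 scale (adjusted p = 0.0221). Mx2, a dynamin-like GTPase, read 6.2, 3.7, 11.1 and 6.3 CPM after RYGB and 13.1, 16.0, 11.4 and 11.6 CPM after sham. The groups were barely separated, at RYGB replicate 3, and the log2 fold change was -0.91 ± 0.24 (adjusted p = 0.0431). Irgm1, a GTPase that controls vacuole-attacking relatives such as Igtp, was also below sham in every RYGB library (58.9 to 124.9 against 125.6 to 178.8 CPM), but with a log2 fold change of -0.65 ± 0.21 and an adjusted p of 0.0728 it did not pass. With it, 6 of the 40 genes had all RYGB below all sham libraries, where 3.05% of all genes did.

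Against these, Gbp2 and Ifngr1 rose in liver. Gbp2, a guanylate-binding protein that responds strongly to interferon gamma, read 14.0, 17.6, 23.7 and 14.5 CPM after RYGB and 4.6, 10.3, 11.5 and 7.8 CPM after sham. No RYGB library reached down to the sham range, and the log2 fold change was 0.98 ± 0.25 (adjusted p = 0.0364). Its relatives Gbp3 and Gbp7 had log2 fold changes of -0.28 and -0.46 and did not pass. Ifngr1, the ligand-binding chain of the interferon gamma receptor, read 30.6, 52.8, 36.7 and 28.7 CPM after RYGB and 18.8, 21.8, 20.4 and 24.4 CPM after sham. It was above every sham library in all RYGB libraries, most in replicate 2, with a log2 fold change of 0.74 ± 0.18 (adjusted p = 0.0309).

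The sensors Ifih1, Ddx58, Dhx58 and Zbp1 all had log2 fold changes below 0 in liver (-0.71 to -0.15) and none passed. Stat2, Irf9 and the feedback enzyme Usp18 read -0.33, -0.36 and -0.23. Nlrc5, the activator of MHC class I genes, stood at 0.05 and the peptide transporter Tap1 at -0.45. The PARP9-DTX3L pair and Parp14 lay between -0.22 and 0.07.

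Among 11 further receptor and JAK-STAT genes, 9 were tested in liver, and 2 rose. These were Ifngr2, the second chain of the interferon gamma receptor (35.0 to 52.4 CPM after RYGB against 20.6 to 27.9 CPM, log2 fold change 0.76 ± 0.14, adjusted p = 0.0126), and Il10rb, a chain shared by the receptors for interferon lambda and interleukin 10 (0.66 ± 0.17, adjusted p = 0.0427). Of 13 sensing and induction genes, 12 were tested, and only the DNA signalling adaptor Sting1 rose (0.77 ± 0.20, adjusted p = 0.0395). Of 60 other interferon-induced genes, 57 were tested. None fell and 1 rose, Irf8, a factor of myeloid cells and plasmacytoid dendritic cells (0.75 ± 0.21, adjusted p = 0.0499). Their median log2 fold change was -0.07. None of the 11 interferon ligand genes on the list, from Ifna1 to Ifng, was listed in any table.

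The liver libraries also differed in myeloid markers. Of 8 macrophage genes 2 rose (Lyz2 and Cd68), and their summed level was 840 to 2647 CPM after RYGB against 338 to 585 CPM. Of 6 neutrophil genes 4 rose, and their sum was 39.1 to 579 CPM against 11.8 to 19.4 CPM. The highest sum of both lists was in RYGB replicate 2. That library also had the lowest value of its group for 31 of the 40 interferon-induced genes, and for 19.1% of all listed genes. It had the highest value for Ifngr1, and for 31.7% of all listed genes. The part of these cells in the results was not tested.

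The liver calls rested on few libraries, and the calls over all genes also changed with the library left out. A single gene remained called when sham replicate 1 or 2 was left out, 2 genes when sham replicate 4 was, 3 when RYGB replicate 2 was, and 4 when RYGB replicate 4 or sham replicate 3 was. Leaving out RYGB replicates 1 and 3 gave 6 and 9 calls. Over all genes, 2.49%, 3.21%, 4.49% and 2.57% were called higher without sham replicates 1 to 4, and 0.846%, 0.754%, 1.33% and 0.712% lower. Without RYGB replicates 1 to 4, 8.46%, 3.74%, 1.94% and 7.13% were called higher, and 1.74%, 0.874%, 0.849% and 1.13% lower. The fall of Oasl1 passed in all 14 alternatives (adjusted p 0.00543 to 0.0443) and that of Rtp4 in 12. Each of the others was lost in 5 to 7, all of them with 1 library left out, at adjusted p of at most 0.105. The rise of Ifngr1 fell under the fold threshold without RYGB replicate 2 (0.56). Within each of the 3 sequencing lane codes that hold both groups, all 7 called genes differed in the direction of the pooled comparison. That direction was fixed in advance, because none of the 7 overlaps between groups, so it says nothing about an effect of lane.

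**Figure D2:**
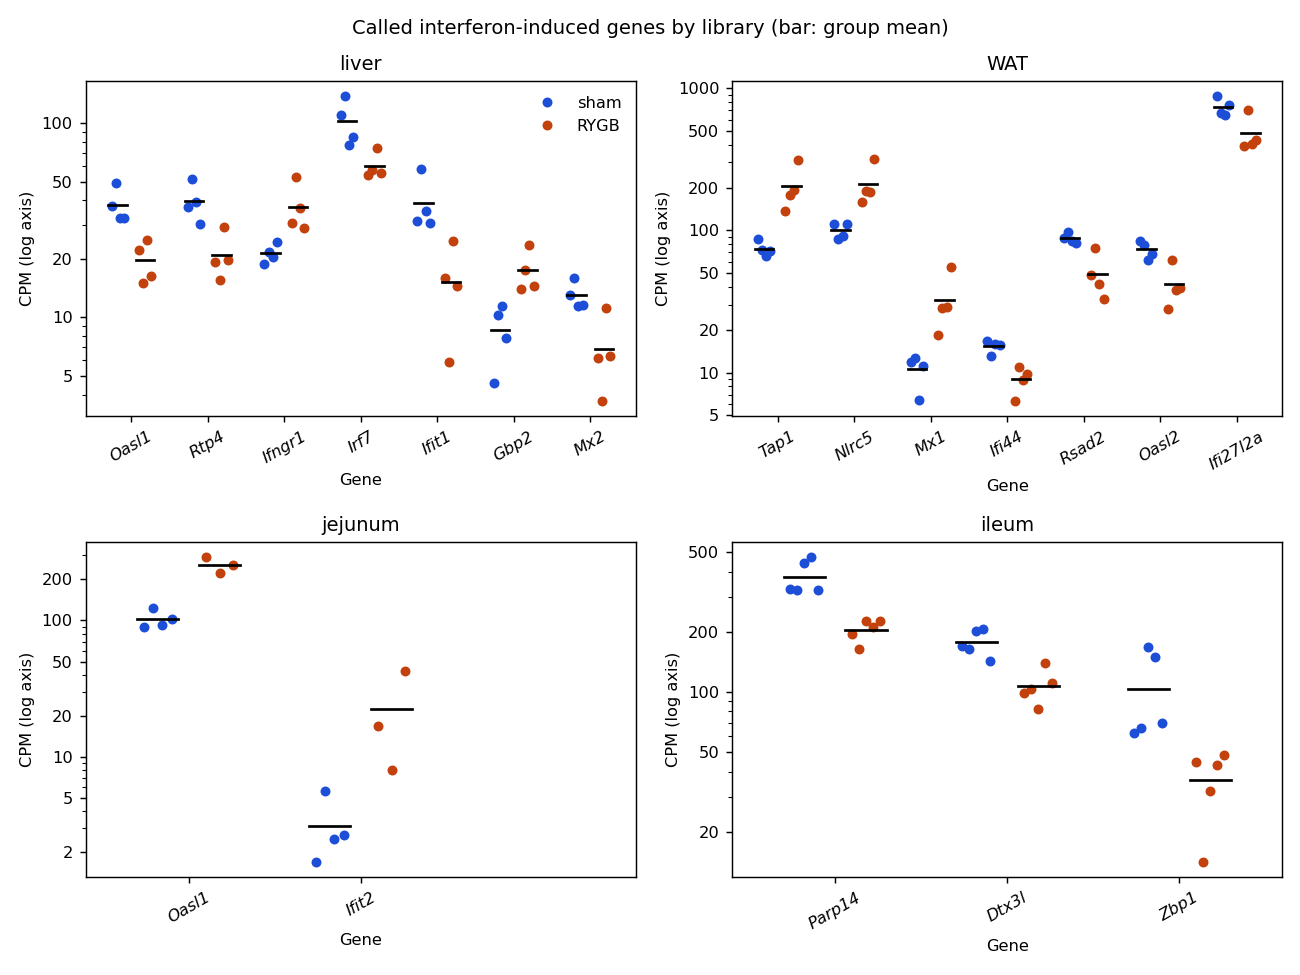
CPM (log axis) of each called gene by library in liver, WAT, jejunum and ileum, with sham in blue, RYGB in red and a bar at the group mean. In liver, jejunum and ileum no called gene overlaps between groups, and in WAT Oasl2 and Ifi27l2a do, each through RYGB replicate 2.

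In WAT the genes split. Tap1, Nlrc5 and Mx1 rose, and Ifi44, Rsad2, Oasl2 and Ifi27l2a fell. Called as higher were 3 of the 40, where 14.9% of all 13379 genes rose, and called as lower were 4, where 9.23% fell. The share called lower lies near the background and the share called higher lies below it, in a tissue in which a large part of all genes changed. The median log2 fold change was -0.10, against 0.11 over all genes, and 13 of the 40 had an unadjusted p under 0.05, where 50% of all genes did. With lane code as a covariate the split turned to 5 higher and 2 lower, where 19.6% of all genes rose and 10.6% fell.

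Tap1 forms with its partner the channel that brings peptides into the endoplasmic reticulum for MHC class I. It read 135.9, 176.2, 193.5 and 314.6 CPM in RYGB replicates 1 to 4 and 87.2, 73.3, 66.0 and 71.1 CPM in sham replicates 1 to 4. Every RYGB library was above every sham library, and replicate 4 was highest. On the log2 scale the difference was 1.39 ± 0.23 (adjusted p = 0.00369). Nlrc5 read 157.9, 187.8, 186.5 and 316.5 CPM after RYGB and 111.2, 86.5, 91.2 and 111.7 CPM after sham. Replicate 4 was again the highest and the groups did not overlap, with a log2 fold change of 1.03 ± 0.21 (adjusted p = 0.00776).

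Mx1 is a GTPase that traps influenza virus components in many mice, although C57BL/6 mice carry a defective allele. Its transcript read 18.3, 28.3, 29.0 and 54.9 CPM after RYGB and 11.9, 12.7, 6.4 and 11.1 CPM after sham. The groups were separated, with replicate 4 the highest once more, and the log2 fold change was 1.48 ± 0.32 (adjusted p = 0.00994). Mx2 next to it on chromosome 16 had a log2 fold change of 0.10 (adjusted p = 0.765).

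Ifi44, an antiviral protein of the cytoplasm, read 6.3, 10.9, 8.9 and 9.8 CPM after RYGB and 16.8, 13.1, 15.9 and 15.6 CPM after sham. All RYGB libraries lay below all sham libraries, with a log2 fold change of -0.73 ± 0.16 (adjusted p = 0.0116). Rsad2 (viperin) makes a nucleotide that stops viral RNA synthesis. It read 48.2, 75.2, 42.2 and 33.0 CPM after RYGB and 88.6, 96.7, 84.2 and 81.5 CPM after sham, again without overlap (-0.87 ± 0.22, adjusted p = 0.0163). Its chromosomal neighbour Cmpk2 read -0.43 ± 0.16 and did not pass (adjusted p = 0.0628).

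Oasl2 read 27.8, 61.8, 37.8 and 39.3 CPM after RYGB and 84.7, 79.5, 61.5 and 68.7 CPM after sham. RYGB replicate 2 was just above the lowest sham library, and the log2 fold change was -0.85 ± 0.22 (adjusted p = 0.0182). Ifi27l2a, a small membrane protein, read 389.3, 703.4, 403.9 and 429.2 CPM after RYGB and 876.4, 670.9, 646.4 and 766.3 CPM after sham. RYGB replicate 2 lay within the sham range and apart from its own group, and the log2 fold change was -0.65 ± 0.21 (adjusted p = 0.0383). The RNA sensor Ifih1 was lower in all RYGB libraries (39.4 to 50.6 against 58.2 to 63.4 CPM) with an adjusted p of 0.0124, but its log2 fold change of -0.42 ± 0.10 was under the fold threshold.

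By role, 9 of the 10 RNA-binding and nucleotide proteins of the Ifit, Oas, Rsad2 and Cmpk2 group had log2 fold changes below 0 in WAT. Oas3 was the exception (0.85, adjusted p = 0.130). Of the 5 genes of transcription and feedback, 4 were above 0, and the fifth, Irf7, stood at -0.10. The sensors read from -0.42 for Ifih1 to 0.88 for Zbp1 (adjusted p = 0.0586).

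The RYGB libraries of WAT held transcripts of lymphocytes that the sham libraries nearly lacked. All 8 B cell markers rose, with a summed level of 879 to 2292 CPM after RYGB against 7.4 to 18.3 CPM, and all 8 T cell markers rose (367 to 1392 against 12.6 to 22.7 CPM). Of 6 plasmacytoid dendritic cell genes 4 rose, among them Siglech (10.4 to 41.3 against 0.7 to 2.0 CPM). Bst2 on that list is itself among the 40, and Irf8 on it is also counted among the other interferon-induced genes. Of 8 macrophage genes 1 rose (Marco) and 3 fell (Cd68, Mrc1, Adgre1). The 5 adipocyte genes summed to 6342 to 11910 CPM after RYGB against 13370 to 19920 CPM, and Lep fell. RYGB replicate 4, the highest library for Tap1, Nlrc5 and Mx1, had the highest B cell and T cell sums (2292 and 1392 CPM) and the lowest level of Rsad2. This library was the highest of its group for 53.4% of all listed genes and the lowest for 32.2%. The other called genes that fell did not follow Rsad2. Ifi44, Oasl2 and Ifi27l2a were higher in replicate 4 (9.8, 39.3 and 429.2 CPM) than in replicates 1 and 3, and lowest in replicate 1. The part of these cells in the differences of the interferon-induced genes was not tested.

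Of 60 other interferon-induced genes, 59 were tested in WAT, 17 rose and 6 fell, beside 14.9% and 9.23% of all genes. Gbp8 (3.29 ± 0.36), Irf8 (2.10 ± 0.27), Ifit1bl1 (2.71 ± 0.40) and the immunoproteasome subunit Psmb8 (1.18 ± 0.18) rose, and Phf11d fell (-0.94 ± 0.16), all with adjusted p of at most 0.00401. Of 11 receptor and JAK-STAT genes 5 rose, among them Socs1 (1.29 ± 0.24), Ifnlr1, Jak1 (0.67 ± 0.21) and Socs3 (1.17 ± 0.36). Of 13 sensing and induction genes 5 rose, among them Tlr9, a DNA sensor of B cells and dendritic cells (2.42 ± 0.32). Among the 40, the calls of Tap1, Nlrc5, Mx1 and Rsad2 held in all 14 alternatives. Ifi44 and Ifi27l2a were lost with lane code as a covariate (log2 fold changes of -0.57 and -0.63), Ifi27l2a also in 8 further alternatives, and Oasl2 without sham replicate 2. Without RYGB replicate 1, 7 genes rose and 3 fell, where 18.7% of all genes rose and 9.43% fell. Within both lane codes that hold libraries of the 2 groups, all 7 called genes differed in the direction of the pooled comparison. Except for Oasl2 and Ifi27l2a this was fixed in advance, because the called genes other than these do not overlap between groups.

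In muscle no gene was called. The limma fit gave 0 of 34 genes and 0% of all 11966 genes, and an unadjusted p under 0.05 was reached by 1 of the 34, where 14.6% of all genes reached it. That gene was Iigp1, an immunity-related GTPase, with 7.3, 9.9, 9.8 and 6.9 CPM after RYGB and 14.1, 18.4, 16.8 and 8.8 CPM after sham. The groups overlapped through sham replicate 4, and the log2 fold change was -0.68 ± 0.21 (adjusted p = 0.195). Gbp7 came next, with 16.5, 18.6, 19.8 and 17.1 CPM after RYGB and 25.7, 27.0, 20.7 and 16.8 CPM after sham, again overlapping through sham replicate 4 (-0.29 ± 0.14, adjusted p = 0.401). The log2 fold changes of all 34 ranged from -0.68 to 0.41 with a median of -0.04. Levels were low in muscle, where 9 of the 34 averaged 10 CPM or more.

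In the duodenum, the segment that food no longer passes, none of the 38 genes was called, and of all 10850 genes tested 0.00922% were, a single gene. The log2 fold change was above 0 for 30 of the 38, against 66.6% of all genes, with a median of 0.24 against 0.12. Scaled by median ratio, 12 were below 0 and the median was 0.12. An unadjusted p under 0.05 was reached by 3 genes, all higher, where 18.8% of all genes reached it.

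These were Nlrc5, Oas2 and Oas3. Nlrc5 read 10.1, 8.5 and 9.6 CPM in RYGB replicates 1 to 3 and 3.2, 3.7, 7.2 and 6.7 CPM in sham replicates 1 to 4. The groups did not overlap, and the log2 fold change was 0.80 ± 0.26 (adjusted p = 0.180). Oas2 makes the oligoadenylates that switch on an RNA-degrading enzyme. It read 11.1, 37.7 and 32.3 CPM after RYGB and 6.3, 8.3, 14.7 and 13.2 CPM after sham, and RYGB replicate 1 lay within the sham range (1.17 ± 0.43, adjusted p = 0.209). Oas3 read 1.00 ± 0.43 (adjusted p = 0.259), and Rsad2 was lower on average (18.4 against 33.4 CPM, adjusted p = 0.288). T cell markers summed to 40.6 to 91.9 CPM after RYGB against 14.7 to 47.0 CPM, with none of 6 called.

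In the jejunum, which food reaches directly after RYGB, Oasl1 and Ifit2 rose. They were 2 of 37 genes tested, a share near the background, since 4.62% of all 10854 genes rose. None fell, where 5.13% of all genes did, and 5 had an unadjusted p under 0.05, where 24.6% of all genes did. The median log2 fold change was 0.17, against -0.04 over all genes.

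Oasl1 read 290.1, 222.1 and 255.2 CPM in RYGB replicates 1 to 3 and 89.8, 123.0, 92.8 and 102.0 CPM in sham replicates 1 to 4. The gap between the groups was wider than the range within either of them. The means were 256 ± 34.0 CPM (SD, n = 3) and 102 ± 14.99 CPM (SD, n = 4), the log2 fold change was 1.32 ± 0.18 and the adjusted p 0.00222. This is the gene that fell in liver, and its call held in all 13 alternatives run in jejunum. In duodenum and ileum Oasl1 had log2 fold changes of -0.10 and 0.44 (adjusted p = 0.910 and 0.237).

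Ifit2, which binds RNA rich in A and U, read 17.0, 8.1 and 42.4 CPM after RYGB and 1.7, 5.6, 2.5 and 2.7 CPM after sham. All RYGB libraries were above sham but varied widely, and replicate 3 carried the largest value. On the log2 scale the difference was 2.30 ± 0.48 (adjusted p = 0.0170), and without sham replicate 4 the adjusted p was 0.05001 and the call was lost, which left Oasl1 alone. Ifit1 and Ifit3, on the same stretch of chromosome 19, read -0.24 and 0.45 and did not pass. The Ifit genes are close relatives and may share reads, as may members of the Oas, Gbp, Irg and Mx families.

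Ifngr1 was also above sham in every RYGB library of the jejunum (170.9, 298.8 and 202.1 against 126.4, 140.3, 139.4 and 131.7 CPM), with a log2 fold change of 0.69 ± 0.20 and an adjusted p of 0.0560. It passed in no alternative but the fit without RYGB replicate 1 (0.87, adjusted p = 0.0314). Within the lane code of 2 RYGB and 4 sham libraries, which lacks RYGB replicate 2, the difference was 0.47, under the fold threshold. Tap1 was lower on average (65.3 against 98.9 CPM, -0.68 ± 0.29, adjusted p = 0.175).

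Of 11 receptor and JAK-STAT genes 2 rose in jejunum, the feedback inhibitors Socs3 (0.97 ± 0.19, adjusted p = 0.0118) and Socs1 (1.75 ± 0.42, adjusted p = 0.0306). Of 46 other interferon-induced genes tested, Slfn5 (1.67 ± 0.43) and Tor3a (1.02 ± 0.27) rose and Apol9b (-2.15 ± 0.43) and the ISG15-conjugating enzyme Ube2l6 (-0.78 ± 0.21) fell. T cell markers fell for 5 of 6 genes (summed level 8.2 to 16.6 against 38.5 to 61.6 CPM) and markers of natural killer cells and intraepithelial lymphocytes for 3 of 3 (20.7 to 35.8 against 76.3 to 225.9 CPM). Of 5 villus markers 1 fell (Apoa4), and their sum was 20640 to 42310 CPM after RYGB against 46690 to 73140 CPM. Their part in these results was not tested. Within the lane code that holds 2 RYGB and 4 sham libraries, Oasl1 and Ifit2 differed by 1.42 and 2.84 on the log2 scale. That direction was fixed in advance, because neither gene overlaps between groups. RYGB replicate 2 is the only library outside this lane code. The fit with lane code as a covariate therefore gave the same differences as leaving that library out. Among the 13 alternatives these are not separate checks.

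In the libraries labelled ileum Parp14, Dtx3l and Zbp1 fell after RYGB, 3 of 37 genes, where 4.42% of all 10735 genes fell. None rose, where 1.64% of all genes did. The log2 fold change was below 0 for 32 of the 37, against 61.6% of all genes, and the median was -0.46, against -0.09. An unadjusted p under 0.05 was reached by 12 genes, all lower, where 26.5% of all genes reached it. Scaled by median ratio, 32 were again below 0 and the median was -0.37.

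Parp14 transfers ADP-ribose to proteins and is a neighbour of Dtx3l and Parp9 on chromosome 16. It read 195.6, 163.8, 225.6, 212.1 and 227.3 CPM in RYGB replicates 1 to 5 and 326.5, 321.8, 442.6, 471.3 and 323.6 CPM in sham replicates 1 to 5. The groups stood well apart, at 205 ± 26.3 CPM (SD, n = 5) and 377 ± 73.6 CPM (SD, n = 5), with a log2 fold change of -0.87 ± 0.14 (adjusted p = 0.00878).

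Dtx3l, a ubiquitin ligase that works as a complex with Parp9, read 98.3, 102.9, 82.4, 140.1 and 111.2 CPM after RYGB and 169.8, 163.3, 201.0, 207.2 and 142.6 CPM after sham. RYGB replicate 4 came close to the lowest sham library without overlap, and the log2 fold change was -0.73 ± 0.15 (adjusted p = 0.0161). Parp9 itself read -0.24 ± 0.14 (adjusted p = 0.270). Dtx3l (chromosome 16, 35926511 to 35939151, minus strand) and Parp9 (35938470 to 35972605, plus strand) overlap at their 5′ ends in GRCm38. Reads in the shared stretch can be told apart only if the counting used strand, which the sources used here do not state.

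Zbp1, a sensor of Z-form nucleic acid that can trigger necroptosis, read 44.6, 14.1, 32.1, 43.2 and 48.5 CPM after RYGB and 62.1, 66.4, 168.0, 149.4 and 70.0 CPM after sham. All RYGB libraries were below all sham libraries, and sham replicates 3 and 4 stood above the other sham libraries. The difference was -1.45 ± 0.37 on the log2 scale (adjusted p = 0.0342). The call was lost in 5 of 15 alternatives, in each with 1 library left out, and those of Parp14 and Dtx3l in none.

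Below the threshold, Oas3 (24.7, 9.8, 26.7, 19.7 and 94.7 against 63.3, 58.6, 94.0, 111.7 and 81.5 CPM) had a log2 fold change of -1.56 ± 0.45 and an adjusted p of 0.0523. RYGB replicates 1 to 4 lay below every sham library and replicate 5 within the sham range. Igtp showed the same shape (2.2 to 11.7 CPM in RYGB replicates 1 to 4, 27.9 CPM in replicate 5, 16.9 to 75.8 CPM after sham). That library was the highest of the RYGB group for 29 of the 37 genes, and for 37.7% of all listed genes. Without it 15 of 36 genes tested fell, where 5.32% of all genes fell in the same fit, among them Oas3 (-2.01, adjusted p = 0.00627), Trim30a (-1.64), Oas2 (-1.74) and Tap1 (-1.05, adjusted p = 0.0135). Leaving out any other library gave 2 to 4 calls.

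Of 43 other interferon-induced genes tested in ileum, 7 fell and none rose, beside the 4.42% of all genes that fell. They included Parp12 (114 ± 23.8 against 185 ± 25.7 CPM, SD, n = 5, log2 fold change -0.70 ± 0.15), Sp100 (-0.72 ± 0.18) and the helicase Ddx60 (-1.25 ± 0.33), and also Gbp6 and Gbp8, both with means under 3 CPM. No receptor, JAK-STAT, sensing or induction gene was called. T cell markers fell for 4 of 5 genes (summed level 5.3 to 17.2 against 23.9 to 61.0 CPM) and markers of natural killer cells and intraepithelial lymphocytes for 3 of 3 (6.4 to 41.8 against 47.5 to 163.7 CPM). RYGB replicate 5, with the highest interferon-induced genes of its group, had T cell and cytotoxic sums of 5.3 and 7.6 CPM, among the lowest. The part of these cells was not tested, nor was that of the ileal markers given above. Summed villus markers overlapped (38420 to 58640 against 26840 to 51980 CPM). Each lane code in ileum was used for 1 group only, and an effect of lane cannot be told apart from that of surgery.

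**Figure D3:**
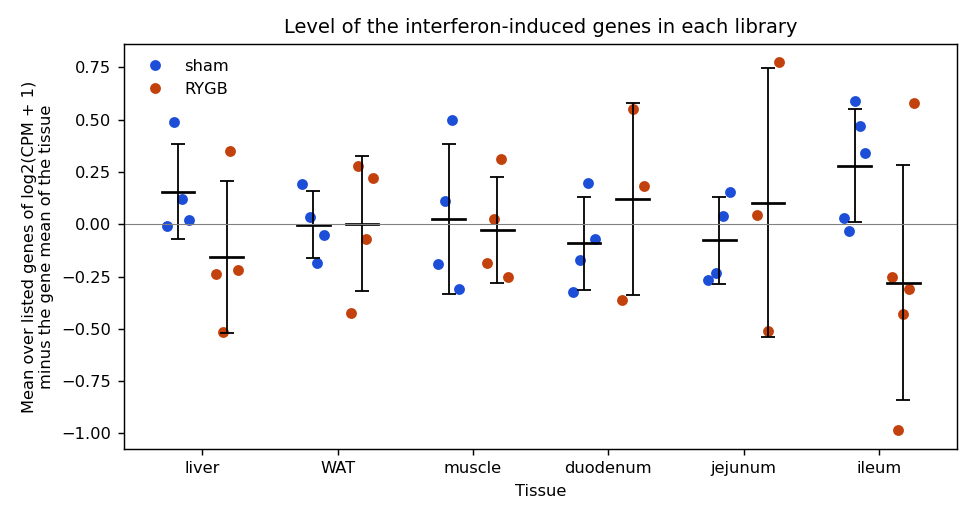
Mean over the listed interferon-induced genes of log2(CPM + 1), relative to each gene's mean in the tissue, for each library, with sham in blue, RYGB in red, bars at the group mean and whiskers of 1 SD. Groups overlap in every tissue, and ileum RYGB replicate 5 (0.58) sits apart from RYGB replicates 1 to 4 (-0.99 to -0.25).

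Single libraries held the highest or lowest value of their group for many of the genes, in some groups and not in others. Relative to each gene's mean in the tissue, the liver libraries averaged between -0.52 (RYGB replicate 2) and 0.49 (sham replicate 2) on the log2 scale. Sham replicate 2 was the highest sham library for 37 of the 40 genes (38.6% of all listed genes) and RYGB replicate 3 the highest RYGB library for 36 (47% of all). In WAT, RYGB replicate 1 was the lowest of its group for 37 of 40 (52.3% of all). RYGB replicate 3 was the highest of its group for 29 of 34 genes in muscle (39.3% of all) and 32 of 38 in jejunum (58.3% of all), and RYGB replicate 2 for 34 of 38 in duodenum (30.7% of all). No such library stood out among the sham libraries of jejunum, where the highest counts were 8, 3, 10 and 17 of 38 (25.7%, 24%, 16.7% and 36% of all). The same held for ileum, where they were 2, 1, 16, 14 and 6 of 37 (25.7%, 11.9%, 11.1%, 12.7% and 41.9% of all). In WAT, RYGB replicates 2 and 4 shared the highest values, with 20 and 18 of 40 (25.3% and 53.4% of all). The labels do not say that a replicate number marks the same mouse in different tissues. The group means of these library averages were -0.16 ± 0.36 (SD, n = 4) after RYGB and 0.16 ± 0.23 (SD, n = 4) after sham in liver, and -0.28 ± 0.56 (SD, n = 5) and 0.28 ± 0.27 (SD, n = 5) in ileum. In none of the 6 tissues did the group means differ by more than the larger of their SDs.

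**Figure D4:**
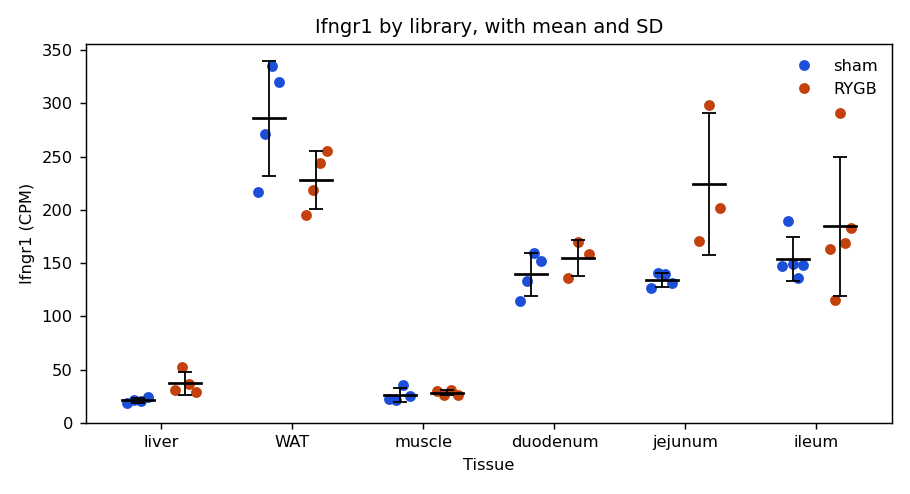
CPM of Ifngr1 in each library of the 6 tissues, with sham in blue, RYGB in red, bars at the group mean and whiskers of 1 SD. RYGB libraries lie above all sham libraries in liver and jejunum and overlap them elsewhere.

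Ifngr1 was listed in every tissue. In WAT it read 228 ± 27.0 CPM (SD, n = 4) after RYGB and 286 ± 53.8 CPM (SD, n = 4) after sham, with a log2 fold change of -0.31 ± 0.16 (adjusted p = 0.145). Muscle had 28.3 ± 2.50 and 26.1 ± 6.41 CPM (adjusted p = 0.741), duodenum 155 ± 17.1 (SD, n = 3) and 140 ± 20.1 CPM (adjusted p = 0.620), and ileum 184 ± 65.0 (SD, n = 5) and 154 ± 20.5 CPM (adjusted p = 0.553). The liver means were 37.2 ± 11.0 and 21.4 ± 2.37 CPM and the jejunum means 224 ± 66.7 and 134 ± 6.61 CPM. Liver was the only tissue in which it was called.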

How the data were processed

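Processed values were CPM, deposited by the authors as 1 table for each tissue and rounded to 0.1. Per the labels, libraries were made with the Illumina TruSeq Stranded mRNA kit, and the submitters' processing notes name HTSeq and the genome GRCm38. The aligner and the strand setting are not given in the sources used here. Repeat lines held equal values and were counted once, and 16 incomplete lines were dropped. Library totals were not part of the tables, so depth is unknown and no counting interval was computed. The rounding limits values under about 1 CPM. At most 3.14% of genes held equal values in a pair of libraries of 1 group, and none was treated as a duplicate.

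Within each tissue, RYGB was compared with sham by limma (version 3.58.1, R 4.3.3, empirical Bayes with a trend) on log2(CPM + 1), keeping genes whose mean was 1 CPM or more, with Benjamini-Hochberg adjustment. Folds on this scale understate the change of low genes. The labels do not tie libraries to mice, so p-values measure only the spread between these libraries, which may be technical. The fit was also run on simulated data, in which genes varied independently. They lacked the shifts shared by many genes of a library seen here, so that run does not measure false calls from such shifts. The 40 genes and all lists were chosen with earlier results of these data known. Every library is given for called genes, and for the 2 genes with the smallest p where none was called. For other lists, counts and at most 5 called genes with the smallest adjusted p are given. Genes named below the threshold were chosen after their values were seen. Gene positions are from GENCODE M21, and figures were drawn with matplotlib 3.10.9.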

Additional observations from a re-analysis of the deposited data

Results flagged for a closer look

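Of 60 groups of 4 or 5 libraries examined, 4 held a library whose gap to the rest was above Dixon's 95% critical value, and chance gives about 1 in 20. They were Ifi27l2a in WAT, where RYGB replicate 2 read 703.4 CPM and the next library 429.2 CPM, Ifit1 in liver, where sham replicate 2 read 58.0 CPM and the next 35.2 CPM, Irf7 in liver, where RYGB replicate 3 read 74.4 CPM and the next 57.4 CPM, and Ifngr1 in ileum, where sham replicate 2 read 189.2 CPM and the next 149.4 CPM. In each case the library apart was the highest of its group.

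Oasl1 was above sham in every RYGB library of the jejunum (log2 fold change 1.32) and below sham in every RYGB library of the liver (-0.92), a gap of 2.24 on the log2 scale. The difference between the tissues was not tested, because the tables were normalized separately.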

How the results depend on the processing

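In liver 11 genes were called with median-ratio scaling and 11 with lane code as a covariate, against 7 as reported. Of all genes, 3.7% were called higher and 1.98% lower with the scaling, and 7.63% and 1.6% with the covariate. The reported fit had 5.79% and 1.29%. Leaving out 1 library gave 1 to 9 calls in liver, 5 to 10 in WAT, 0 in muscle and duodenum, 1 to 3 in jejunum and 2 to 15 in ileum. The pseudocount of 0.1, no minimum on CPM, a mean of at least 10 CPM and the adjusted p without a fold minimum kept the counts within 1.5 times those reported. Of the 266 refitted values of the 19 calls, all kept their sign and 47 missed the threshold. Where the groups of a gene did not overlap, leaving out a library could not turn the sign. The count of all genes called ran from 329 to 1236 in liver (836 as reported), 2316 to 4980 in WAT (3231), 0 to 210 in muscle (0 as reported, 210 without RYGB replicate 4), 0 to 757 in duodenum (1 as reported, 757 without sham replicate 4), 462 to 1085 in jejunum (1058) and 312 to 856 in ileum (650). For none of these moves was the cause tested.

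With a replicate block, pairing libraries by the number in their labels, 7 genes were called in liver, 6 in WAT, 1 in muscle (Iigp1), 1 in duodenum (Oas3), 3 in jejunum and 6 in ileum. Of all genes, 8.88%, 15.3%, 1.4%, 1.87%, 4.57% and 1.44% were called higher in these tissues. Called lower were 1.59%, 9.61%, 0.142%, 0.921%, 4.37% and 3.96%. The calls in muscle and duodenum thus came in fits that also called more of all genes. Correlations of the deviations of same-numbered libraries ran from -0.28 to 0.39, and in no tissue were all above 0.1, so the numbers were not taken as pairs. Depth is unknown, and the counting error of genes near 1 CPM could not be computed.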
